A study of Mus musculus with 4 samples.

Results

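The monocyte chemokines examined here were the 6 CC chemokine genes *Ccl2*, *Ccl6*, *Ccl7*, *Ccl8*, *Ccl9* and *Ccl12*, together with *Ccr2*, the receptor of several of them. They were taken by symbol, and all 7 were found among the 21739 genes listed across 4 single-cell libraries. The libraries came from C57/BL6j mice that were 6 weeks old and carried full-thickness punch wounds in the shoulder skin. Mice of the hucMSC-Exosomes group received 100 µg of exosomes from human umbilical cord mesenchymal stem cells under the skin around the wound every 48 h, and the control group received an equal volume of PBS by the same route. The skin around the wound was taken on day 7, and 2 libraries per group were sequenced by the 10x Genomics 3′ method, 1 from each of 2 mice. They are called Control 1 and 2 and hucMSC-Exo 1 and 2, and a row of 4 values gives both control libraries first, then both hucMSC-Exo libraries.

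CC chemokines are small secreted proteins that draw leukocytes along a gradient through G protein-coupled receptors. *Ccl2*, *Ccl7*, *Ccl8* and *Ccl12* encode the monocyte chemoattractant proteins (MCPs). *Ccl2*, *Ccl7* and *Ccl12* encode ligands of Ccr2, the receptor that lets Ly6C-high monocytes leave the bone marrow and enter wounded skin, whereas mouse Ccl8 is known mainly as a ligand of Ccr8. *Ccl6* and *Ccl9* encode rodent chemokines that act on Ccr1.

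The 4 MCP genes lie in 1 stretch of chromosome 11 of GRCm38, all on the plus strand, with *Ccl11* (82057823 to 82062955) between *Ccl7* and *Ccl12*. *Ccl2* spans 82035571 to 82037453, *Ccl7* 82045712 to 82047525, *Ccl12* 82101845 to 82103400 and *Ccl8* 82115185 to 82116799. *Ccl9* (83572919 to 83578636) and *Ccl6* (83587882 to 83593087) follow on the minus strand of the same chromosome. *Ccr2* lies on the plus strand of chromosome 9 from 124101950 to 124113557. The 250 bases before the start of 4 chemokine genes are shown because these neighbours fell into 2 patterns of expression, *Ccl8* with *Ccl12* and *Ccl6* with *Ccl9*. They are from RefSeq on GRCm38.p6, are written 5′ to 3′ on the gene's own strand, and carry the matched motifs in capitals.
Ccl12, chr11:82101595-82101844, plus strand: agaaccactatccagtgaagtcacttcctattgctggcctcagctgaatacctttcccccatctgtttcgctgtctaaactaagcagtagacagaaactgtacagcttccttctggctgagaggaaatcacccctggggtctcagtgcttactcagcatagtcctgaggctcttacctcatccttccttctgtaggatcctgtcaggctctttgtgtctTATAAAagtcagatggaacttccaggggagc
Ccl8, chr11:82114935-82115184, plus strand: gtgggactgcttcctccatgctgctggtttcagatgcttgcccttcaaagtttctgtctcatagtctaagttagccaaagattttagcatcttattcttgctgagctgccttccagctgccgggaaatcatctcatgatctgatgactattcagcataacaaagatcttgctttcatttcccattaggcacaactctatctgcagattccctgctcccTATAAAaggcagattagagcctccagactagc
Ccl6, chr11:83593088-83593337, minus strand: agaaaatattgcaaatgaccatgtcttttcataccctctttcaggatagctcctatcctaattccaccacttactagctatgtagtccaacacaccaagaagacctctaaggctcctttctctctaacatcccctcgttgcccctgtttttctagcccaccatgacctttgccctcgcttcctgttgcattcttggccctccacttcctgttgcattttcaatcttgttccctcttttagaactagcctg
Ccl9, chr11:83578637-83578886, minus strand: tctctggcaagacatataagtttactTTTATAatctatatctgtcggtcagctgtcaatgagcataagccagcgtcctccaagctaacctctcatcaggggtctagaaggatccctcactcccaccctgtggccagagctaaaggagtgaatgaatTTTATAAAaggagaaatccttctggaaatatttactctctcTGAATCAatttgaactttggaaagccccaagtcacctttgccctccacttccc

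Motifs were searched by 6 spellings on both strands of these stretches. The TATA box spelling TATAAA began 31 bases before the *Ccl12* start and 32 bases before the *Ccl8* start. *Ccl9* held it at 224, 94 and 92 bases before the start, the last 2 overlapping on opposite strands, and it also held the AP-1 spelling TGANTCA at 53 bases. *Ccl6* held none of the 6 spellings. TATAAA occurred in 13.6% and TGANTCA in 7.81% of the 32851 RefSeq promoters of 300 bases. AGATAA for GATA factors (11.2% of promoters), TTCNNNGAA for STAT factors (8.30%), GAGGAAGT for PU.1 (3.2%) and the NF-kB motif (20.7%) were not found in the 4 stretches shown. The longest run of letters that *Ccl6* and *Ccl9* shared was 13 bases, gccctccacttcc, at 55 and 14 bases before their starts. *Ccl8* and *Ccl12* shared 8 bases, ggaaatca, at 128 bases before both starts. Promoters of *Ccl2* and *Ccl7* were not shown.

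A unique molecular identifier (UMI) marks 1 captured RNA molecule, and a level in CPM is a gene's UMI count scaled to 1000000 UMIs in all over the cells named. After filtering, 952, 2074, 1416 and 2001 cells remained in the 4 libraries, with 4779405, 11243740, 6459007 and 9053510 UMIs. Libraries shared at most 2 cell barcodes per pair. The labels call the samples skin cells but name gut as the tissue, and 81.4% to 87.1% of the kept cells had a UMI of *Ptprc*, the leukocyte antigen CD45. The paper counts more cells per library than were deposited. Shares of a gene's UMIs and rankings of classes below therefore hold for the deposited cells only. The groups follow the sample titles, but letters in the deposited names set Control 1 with hucMSC-Exo 1 and Control 2 with hucMSC-Exo 2. Every direction, overlap and lack of a difference between groups therefore rests on the titles. Cells were gated on marker lists that held none of the 7 genes, and each class name below stands for cells that resembled that type by its markers. The gates held 978 C1q macrophages, 112 osteoclast-like macrophages, 550 monocytes, 924 neutrophils, 90 basophils and 38 mast cells. They also held 543 IL-17 gamma delta T cells, 625 CD4 T cells, 1164 dendritic epidermal T cells, 121 NK cells and 284 group 2 innate lymphoid cells. By library the gates held 155, 404, 199 and 220 C1q macrophages and 39, 305, 77 and 503 neutrophils. The paper reports more M2 macrophages and neutrophils in the hucMSC-Exosomes group than in the control group. Which pairing of the libraries is right was not tested. Only 19 of the 455 cells in the keratinocyte gate fell in a keratinocyte cluster, so values for that gate are not read as keratinocyte expression. The fibroblast gate held 112 cells, and no cell was gated as endothelial.

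Among the deposited cells *Ccl8* was almost entirely a gene of the C1q macrophages, the gate whose markers include the complement C1q genes. Its level in them was 4550 CPM in Control 1, 1727 in Control 2, 1657 in hucMSC-Exo 1 and 5267 in hucMSC-Exo 2. Each group thus held 1 high and 1 low library, and the groups overlapped. The gate held 95.8% to 98.3% of all *Ccl8* UMIs in the 4 libraries, although it held only 978 of 6443 cells. A *Ccl8*-positive C1q macrophage carried on average 67, 38.3, 85.6 and 72.3 UMIs in the same order of libraries, and the highest cell carried 630. Positive cells made up 51.0% of C1q macrophages in Control 1 (95% exact Clopper-Pearson interval 42.8 to 59.1), 33.2% (28.6 to 38.0) in Control 2, 13.1% (8.72 to 18.6) in hucMSC-Exo 1 and 45.5% (38.7 to 52.3) in hucMSC-Exo 2. These intervals cover counting error only. With every cell thinned to 1000 UMIs the shares were 37.8%, 24.4%, 11.6% and 36.5%, the same order of libraries.

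*Ccl12*, the other MCP gene of this narrow kind, followed the same libraries. It measured 246.7, 105.0, 98.3 and 222.1 CPM in the C1q macrophages of the 4 libraries. That gate held 92.0% to 98.5% of its UMIs. In the monocytes it reached 43.4 CPM in Control 1 and at most 7.72 CPM in the other 3 libraries. In neutrophils no *Ccl12* UMI was found in any library, which in hucMSC-Exo 2, the library with most neutrophils, allows a share of cells with a UMI of up to 0.596% by a limit of 3 counts and 0.731% by the exact interval, at a median of 2142 UMIs per cell.

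*Ccl2* and *Ccl7* were less restricted. In C1q macrophages *Ccl2* measured 363.6, 376.6, 237.4 and 543.3 CPM in the 4 libraries, and *Ccl7* measured 304.3, 395.1, 235.2 and 592.1 CPM. Both hucMSC-Exo libraries lay outside the range of the controls, 1 below and 1 above it. C1q macrophages held 54.5% to 72.8% of the *Ccl2* UMIs and 72.6% to 76.0% of the *Ccl7* UMIs. T cells, which are not known for making these chemokines, carried a *Ccl2* UMI in 3.87% to 11.3% of cells and a *Ccl7* UMI in 1.98% to 6.93%. Such UMIs can come from free RNA in the droplets. The share with *Ccl2* in macrophages, 20.5% to 40.0%, was above that background in every library, at median depths of 6304 to 8333.5 UMIs per macrophage against 3318 to 4365 per T cell. In neutrophils, at median depths of 1902 to 2187 UMIs, the *Ccl2* share was 0%, 13.8%, 6.49% and 11.7% against 3.87%, 11.3%, 8.595% and 8.19% in T cells. In Control 2 the neutrophil interval (10.1 to 18.2) held the T cell share, and in hucMSC-Exo 2 the interval (9.05 to 14.9) lay above it. With every cell thinned to 1000 UMIs the shares were 0%, 8.33%, 3.95% and 6.91% in neutrophils and 1.56%, 1.85%, 1.82% and 2.88% in T cells. Neutrophils then stood above T cells in all libraries except Control 1. Thinning removed a larger part of the UMIs of T cells, the deeper cells, so it cannot set these UMIs apart from free RNA. Whether they came from the neutrophils themselves was not tested.

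Mast cells, the tissue-resident granulocytes that store histamine, had the highest levels of *Ccl2* and *Ccl7* in CPM among the classes. *Ccl2* was detected in 35 of 38 mast cells and measured 2532, 4940, 3681 and 5016 CPM in the 4 libraries. *Ccl7* was detected in 29 of the 38 and measured 2532, 13300, 8754 and 10455 CPM. Only Control 2 and hucMSC-Exo 2 had 10 or more mast cells, so the class mean is over those 2 libraries, 4978 ± 53.5 CPM (SD, n = 2) for *Ccl2* and 11877 ± 2012 CPM for *Ccl7*. For comparison, the means in C1q macrophages were 380 ± 126 and 382 ± 155 CPM (SD, n = 4). Despite their small number, mast cells held 5.15%, 17.3%, 20.6% and 13.7% of the *Ccl7* UMIs in the 4 libraries. No UMI of *Ccl6*, *Ccl8*, *Ccl9*, *Ccl12* or *Ccr2* was found in the 38 mast cells. Their median of 1280.0 UMIs was low, and the 15 mast cells of Control 2, at a median of 915 UMIs, allow a share of cells with a UMI of up to 20% by a limit of 3 counts and 21.8% by the exact interval.

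**Figure D1:**
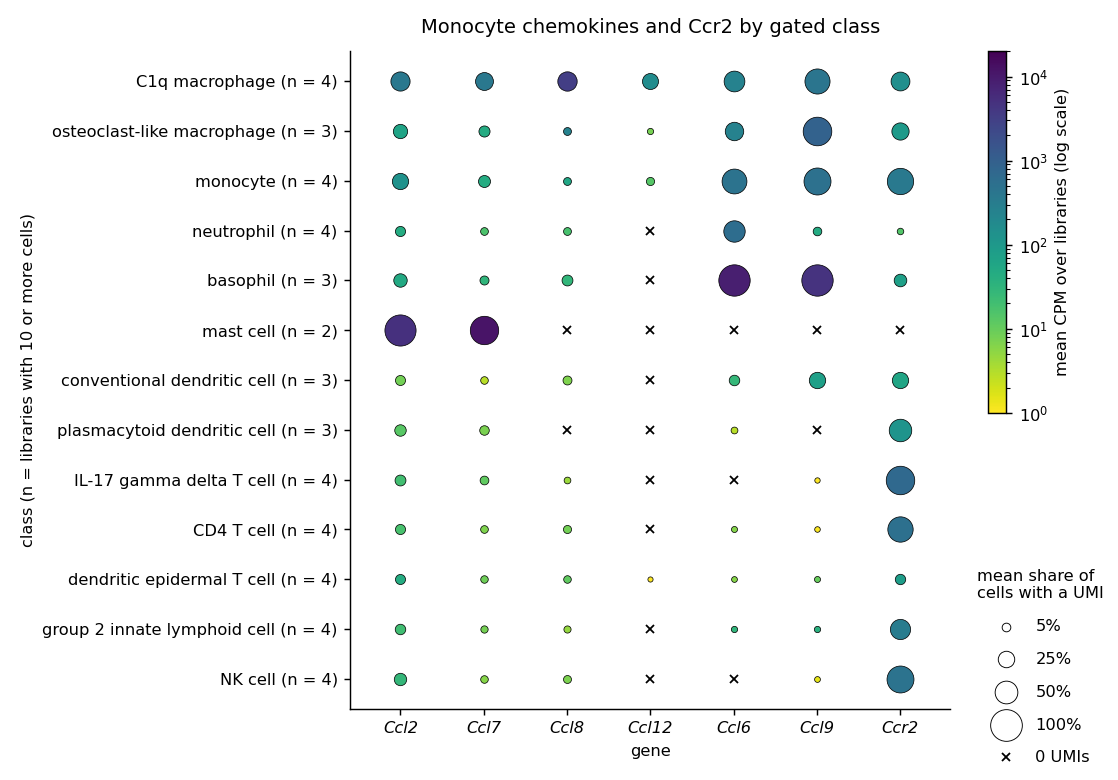
Mean level (colour, CPM on a log scale) and mean share of cells with a UMI (dot size) of the 7 genes in each gated class, over libraries with 10 or more cells of the class. *Ccl8* and *Ccl12* peak in the C1q macrophages at 3300 and 168 CPM, *Ccl2* and *Ccl7* in the mast cells, *Ccl6* and *Ccl9* in the basophils, and *Ccr2* in the IL-17 gamma delta T cells at 700 CPM.

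*Ccl6* and *Ccl9* were highest in basophils, the circulating counterpart of mast cells that releases interleukin 4. *Ccl6* measured 10771, 7801 and 7456 CPM in the basophils of Control 2 and of hucMSC-Exo 1 and 2, and *Ccl9* measured 5715, 4558 and 3979 CPM. Control 1 held a single basophil. Each gene was detected in 89 of the 90 basophils. The class means were 8676 ± 1823 CPM for *Ccl6* and 4751 ± 884 CPM for *Ccl9* (SD, n = 3).

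After the basophils, *Ccl6* was spread over the myeloid cells. Neutrophils measured 429.5, 788.5, 334.6 and 855.5 CPM of *Ccl6* in the 4 libraries. Monocytes measured 496.2, 440.8, 341.3 and 551.5 CPM, and C1q macrophages 374.8, 223.8, 105.7 and 337.2 CPM. The means of 602 ± 258, 457 ± 89.6 and 260 ± 121 CPM overlapped in their spread from one class to the next. *Ccl9* had a different order after the basophils, with 907 ± 494 CPM in osteoclast-like macrophages (n = 3), 510 ± 125 in monocytes, 432 ± 88.8 in C1q macrophages and only 47.4 in neutrophils. The first 3 of these overlapped, and the neutrophil libraries, at 5.98 to 83.7 CPM, all lay below them.

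The same gene came mainly from different cells in different libraries, and the classes also made up different shares of each library. C1q macrophages held 58.5% of the *Ccl6* UMIs in Control 1 but 15.5%, 16.8% and 15.9% in Control 2 and in hucMSC-Exo 1 and 2. Basophils held 51.7% of them in Control 2 and 39.3% in hucMSC-Exo 1, and neutrophils 35.1% in hucMSC-Exo 2. For *Ccl9* the largest holder was the C1q macrophage in Control 1, Control 2 and hucMSC-Exo 1 (53.1%, 36.6% and 40.9%) and the monocyte in hucMSC-Exo 2 (43.1%). A level over a whole library therefore mixed cell numbers with levels per cell, and these cannot be told apart in it. Within a library the UMIs were also concentrated in few cells. The top 1% of cells held 56.0% to 94.6% of the *Ccl8* UMIs and 66.7% to 82.1% of the *Ccl12* UMIs, against 11.3% to 17.8% of the *Ccr2* UMIs.

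**Figure D2:**
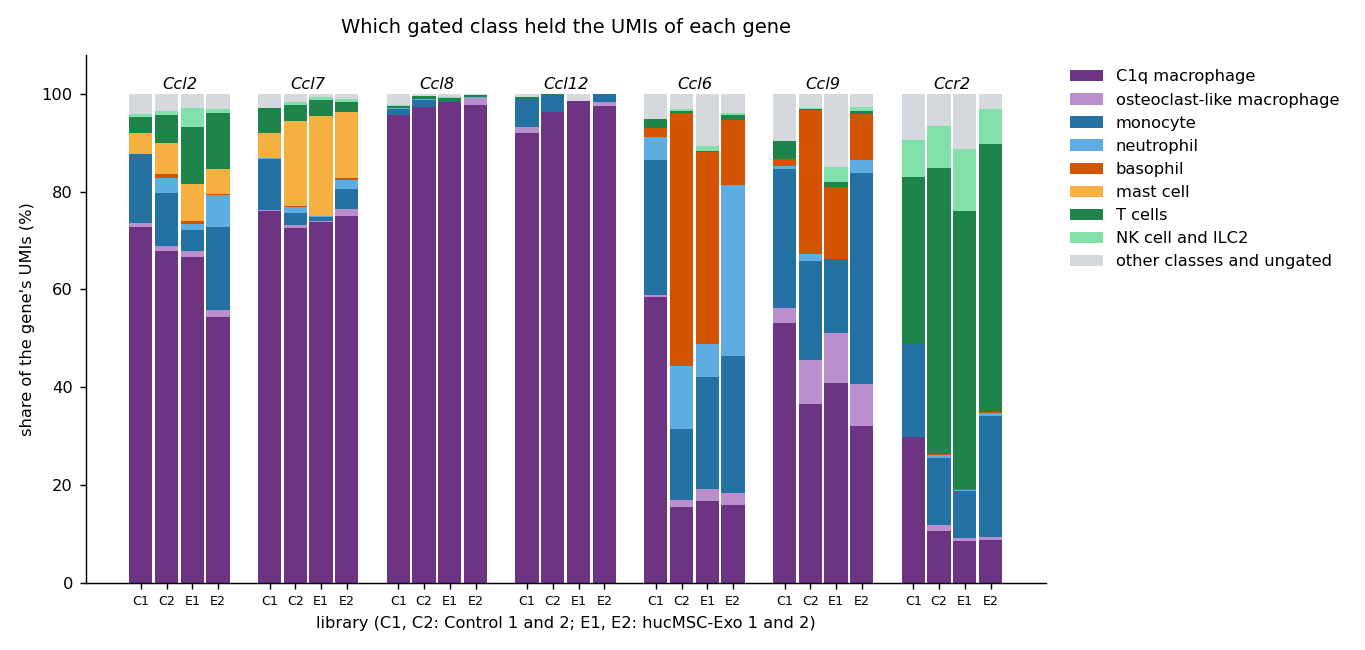
Share of each gene's UMIs (%) held by each gated class, 1 bar per library. The C1q macrophage segment fills at least 92.0% of every *Ccl8* and *Ccl12* bar, while the main holder of *Ccl6* changes from C1q macrophages in Control 1 to basophils in Control 2 and hucMSC-Exo 1 and neutrophils in hucMSC-Exo 2.

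*Ccr2*, the receptor, had its highest class means in IL-17 gamma delta T cells, CD4 T cells and NK cells, with monocytes after them. IL-17 gamma delta T cells, the skin T cells that make interleukin 17, measured 306.0 CPM in Control 1, 908.4 in Control 2, 881.1 in hucMSC-Exo 1 and 704.7 in hucMSC-Exo 2. Of their cells 63.6%, 87.0%, 87.2% and 83.3% had a *Ccr2* UMI. CD4 T cells measured 286.7, 734.1, 588.0 and 551.0 CPM. Monocytes, the cells for which Ccr2 is best known, measured 358.9, 315.9, 274.5 and 498.1 CPM. The order of class means was 700 ± 278 CPM in IL-17 gamma delta T cells, 540 ± 186 in CD4 T cells, 462 ± 147 in NK cells, 362 ± 97.2 in monocytes, 322 ± 97.5 in group 2 innate lymphoid cells and 152 ± 49.9 in C1q macrophages (SD, n = 4). Neighbours in this order overlapped in their spread, except that every monocyte and every innate lymphoid library lay above its C1q macrophage counterpart. T cells were not uniformly high. The T cells outside the named T cell classes had 294 ± 151 CPM and dendritic epidermal T cells, the resident T cells of mouse epidermis, 83.9 ± 38.2 CPM, with a *Ccr2* UMI in 8.45% of cells. Neutrophils, with 14.6 CPM, and mast cells, with 0 UMIs, were at the bottom.

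Control 1 stood apart for *Ccr2* in the lymphoid cells. It was the lowest library in IL-17 gamma delta T cells, CD4 T cells, NK cells and group 2 innate lymphoid cells, and over all T cells it measured 117.5 CPM against 546.4, 388.9 and 471.1 CPM in Control 2 and in hucMSC-Exo 1 and 2. The share of T cells with a *Ccr2* UMI was 17.8%, 52.3%, 37.5% and 51.6%, and 6.03%, 30.01%, 22.4% and 28.2% after thinning. Control 1 was not the lowest in monocytes or in C1q macrophages, where it had the highest *Ccr2* level of all 4 libraries, 201.1 CPM.

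The class comparisons asked which of the macrophage, monocyte, neutrophil and T cell classes of the same mice carried more of each chemokine. UMIs were summed per library and class and fitted across all genes with edgeR's quasi-likelihood test, with the library as a block, and p-values were adjusted by Benjamini-Hochberg over all genes tested. The log2 fold change is given with its standard error (SE). P-values measure the spread between these libraries.

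Between C1q macrophages and monocytes 28.7% of 7233 genes passed an adjusted p of 0.05, 14.5% being higher and 14.2% lower in the macrophages. Of the 7 genes, 4 were higher and 2 were lower. All 4 MCP genes were higher in the macrophages, *Ccl8* and *Ccl12* against few monocyte UMIs. Monocytes of the 4 libraries held 68, 69, 4 and 6 *Ccl8* UMIs, of which 1 cell held 40, 56, 3 and 3. They held 18, 11, 0 and 5 *Ccl12* UMIs. The log2 fold change of *Ccl8* was 6.19 (SE 0.50, edgeR quasi-likelihood test, Benjamini-Hochberg adjusted p = 9.84e-08) and that of *Ccl12* was 4.01 (SE 0.35, adjusted p = 2.86e-07). *Ccl7* followed with 3.33 (SE 0.34, adjusted p = 1.88e-06) and *Ccl2* with 1.54 (SE 0.18, adjusted p = 6.46e-06). The receptor went the other way, *Ccr2* being lower in the macrophages by -1.40 on the log2 scale (SE 0.14, adjusted p = 1.87e-06). *Ccl6* was lower by -1.03 (SE 0.17, adjusted p = 0.000238), and this call was lost with clusters in place of gates (-0.60, adjusted p = 0.0754) and without the library block (-0.93, adjusted p = 0.0642). *Ccl9* had a log2 fold change of -0.34 (adjusted p = 0.0559) and did not pass, but it passed without hucMSC-Exo 1 (-0.47, adjusted p = 0.0179), with no upper limit on detected genes (-0.43, adjusted p = 0.0155) and with 1 marker more per gate (-0.44, adjusted p = 0.0146).

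Other genes of the pathway were counted in 3 lists. Of 14 other CC ligands 5 were tested, and *Ccl3* (log2 fold change 1.23) and *Ccl4* (1.00) were higher in C1q macrophages than in monocytes. Of 15 other receptors 5 were tested, 1 being higher (*Ccrl2*, 1.41, a receptor that binds chemerin without signalling) and 2 lower, among them *Ccr7* (-1.44). Of 16 genes of Ccr2 signalling and monocyte adhesion 15 were tested, 2 being higher and 8 lower, among them *Itgal* (-1.72), *Jak2* (-0.97) and *Itgb2* (-0.86). The medians of the 3 lists were 1.00, -0.40 and -0.50, against 0.00 over all genes tested. *Ccl4*, *Ccrl2*, *Ccr7* and *Itgb2* lost their calls in 2, 1, 2 and 1 of 11 alternatives. *Ccl4* fell to 0.50 without hucMSC-Exo 2, where it still passed.

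The osteoclast-like macrophages, which carried *Ctsk*, *Acp5* and *Spp1*, were compared with C1q macrophages over the 3 libraries that held 10 or more of them. In 43 of the 112 osteoclast-like cells another class scored at least 75% as high. All 4 MCP genes were lower in the osteoclast-like class, where 3.56% of 6405 genes were lower and 5.40% passed in either direction. *Ccl2* measured 38.8, 19.0 and 129.2 CPM in the osteoclast-like cells of Control 2 and of hucMSC-Exo 1 and 2, and its log2 fold change was -2.91 (SE 0.31, edgeR quasi-likelihood test, adjusted p = 1.64e-05). *Ccl7* measured 17.0, 3.16 and 121.6 CPM (-3.70, SE 0.41, adjusted p = 2.12e-05). For both genes hucMSC-Exo 2 was the highest library, yet still below every C1q macrophage library.

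*Ccl8* and *Ccl12* rested on very few UMIs in these cells. *Ccl8* had 0, 1 and 103 UMIs in Control 2 and in hucMSC-Exo 1 and 2, and 102 of the 103 lay in 1 cell. Its log2 fold change was -5.23 (SE 0.71, adjusted p = 0.000151), and it no longer passed when the block was dropped (-3.68, adjusted p = 0.139). *Ccl12* had 0, 0 and 3 UMIs and a log2 fold change of -5.04 (SE 0.58, adjusted p = 2.95e-05). Without hucMSC-Exo 2 these 2 values became -10.13 and -10.02, which at 1 and 0 UMIs depend on the prior count of the fit. *Ccl6* (-0.16, adjusted p = 0.850), *Ccl9* (0.82, adjusted p = 0.0630) and *Ccr2* (-0.64, adjusted p = 0.253) did not pass. Each of them passed under some alternatives in edgeR's quasi-likelihood test. *Ccl9* passed without hucMSC-Exo 1 (1.16, adjusted p = 0.000640) and without doublets (0.83, adjusted p = 0.0336). *Ccr2* passed with 1 marker more per gate (-1.24, adjusted p = 0.0196) and with no upper limit on detected genes (-2.67, adjusted p = 0.000325), where *Ccl6* passed too (-1.72, adjusted p = 0.00424). With no upper limit many more genes passed in all than the 346 of the main fit.

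Among the other pathway genes 3 of the 5 ligands tested were lower in osteoclast-like cells, *Ccl4* (-3.70), *Ccl3* (-2.87) and *Ccl5* (-2.43). Of 5 receptors tested 2 were lower, *Cx3cr1* (-2.99), the fractalkine receptor, and *Ccrl2* (-0.99). Of 13 signalling and adhesion genes tested 1 was higher (*Itgb2*, 0.88) and 1 lower (*Arrb2*, -1.43). The list medians were -2.43, -0.77 and 0.03, against -0.02 over all genes. *Ccl4* kept its call in all 9 alternatives, and the others lost it in 1 to 7.

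Between neutrophils and monocytes 55.3% of 5024 genes passed, 26.3% being higher and 29.0% lower in neutrophils. Only 5 of the 7 genes had enough counts to be tested, and 2 of them were lower in neutrophils. *Ccr2* differed by -4.21 (SE 0.35, edgeR quasi-likelihood test, adjusted p = 1.46e-06) and *Ccl9* by -3.11 (SE 0.30, adjusted p = 5.22e-06). In both cases every neutrophil library lay below every monocyte library. *Ccl6* (0.61, adjusted p = 0.0541), *Ccl2* (-0.80, adjusted p = 0.0917) and *Ccl7* (-0.40, adjusted p = 0.445) did not pass. *Ccl6* was higher in neutrophils past the threshold without Control 1 (0.90, adjusted p = 0.00303), without hucMSC-Exo 1 (0.73, adjusted p = 0.0380), without doublets (0.58, adjusted p = 0.0473), with no upper limit on detected genes (0.65, adjusted p = 0.0298), with 1 marker more per gate (0.59, adjusted p = 0.0339) and with clusters as classes (1.13, adjusted p = 0.000239). *Ccl2* passed without hucMSC-Exo 1 (-0.87, adjusted p = 0.0452), without the filter on low counts (-0.88, adjusted p = 0.0235) and with 1 marker more per gate (-0.91, adjusted p = 0.0392). Without hucMSC-Exo 2 *Ccl8* could be tested and was lower in neutrophils (-1.40, adjusted p = 0.0331).

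Some other chemokine genes were higher in neutrophils than in monocytes relative to all UMIs of the class, the median cell holding 2132.5 and 7220 UMIs. Of 4 ligands tested *Ccl3* (3.73) and *Ccl4* (2.18) were among the 3 higher ones and *Ccl5* (-3.26) was lower. Of 4 receptors *Ccrl2* (4.50) and *Ccr1* (2.00) were higher and 1 was lower. *Ccr1*, a receptor for Ccl6 and Ccl9, was thus higher in the class with less *Ccl9*. Of 14 signalling and adhesion genes 7 were higher, among them *Rac2* (1.84), and 1 was lower. The list medians were 1.83, 0.25 and 0.51, against -0.10 over all genes.

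Among T cells *Ccr2* was higher in IL-17 gamma delta T cells than in CD4 T cells, where 22.8% of 5638 genes passed and 10.8% were higher. The log2 fold change was 0.39 (SE 0.10, edgeR quasi-likelihood test, adjusted p = 0.00394), and the IL-17 gamma delta T cells were the higher class in 4 of 4 libraries. The call was lost with clusters in place of gates (0.21, adjusted p = 0.162), without the library block (0.41, adjusted p = 0.409) and without hucMSC-Exo 1 (0.34, adjusted p = 0.0566). The only other member tested, *Ccl2*, did not pass (0.18, adjusted p = 0.736). Of 7 other receptors tested 1 was higher (*Ccrl2*, 1.05) and 3 were lower, *Ccr3* (-2.47), *Ccr7* (-2.44), which homes T cells to lymph nodes, and *Ccr4* (-1.61). Of 2 ligands tested *Ccl5* (-2.85) was lower. Of 11 signalling and adhesion genes 2 were higher, among them *Itgal* (0.73), and 2 were lower, *Jak2* (-0.93) and *Rac2* (-0.88). The medians of the receptor, ligand and signalling lists were -0.12, -1.44 and -0.02, against -0.03 over all genes. *Ccl5* depended on Control 2, without which it was -7.43.

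**Figure D3:**
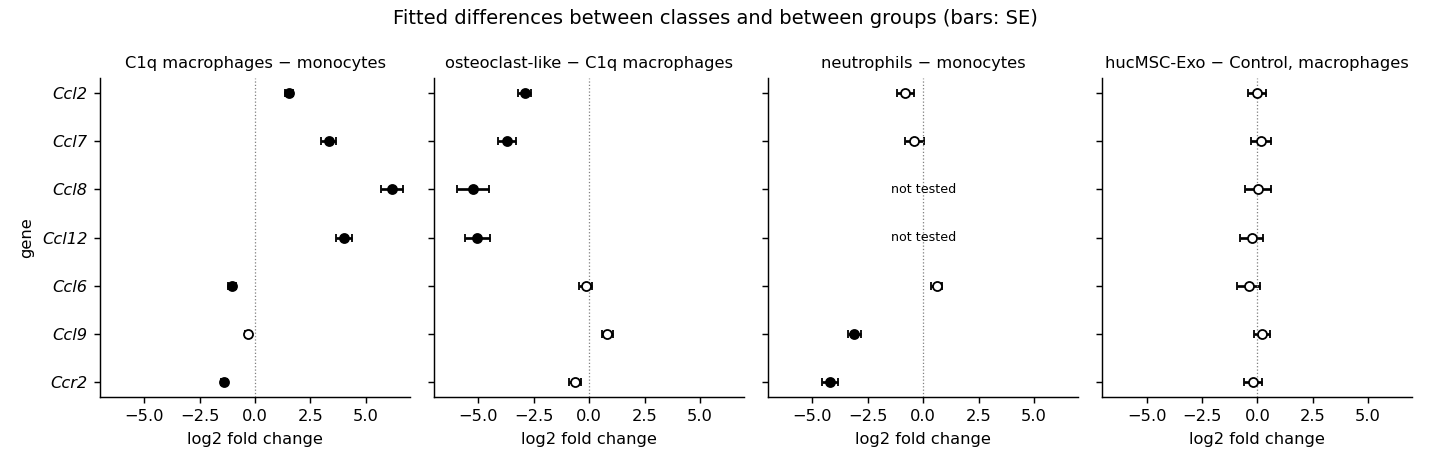
Fitted log2 fold changes of the 7 genes (points, bars are SE, filled where the adjusted p was under 0.05) between classes and between the hucMSC-Exosomes and control groups. The MCP genes sit far to the right in C1q macrophages against monocytes (1.54 to 6.19) and to the left in osteoclast-like against C1q macrophages (-2.91 to -5.23), while between the groups in macrophages all 7 lie between -0.39 and 0.19.

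The treatment comparison asked whether the chemokines differed between the hucMSC-Exosomes and control groups. Over all kept cells and in macrophages, monocytes, neutrophils and T cells, 0.0% of genes passed an adjusted p of 0.05 with edgeR's quasi-likelihood test, and none of the 7 genes did. The genes with an unadjusted p under 0.05 numbered 182 of 12117 over all cells, 67 of 7980 in macrophages, 115 of 6336 in monocytes, 43 of 3844 in neutrophils and 261 of 10041 in T cells. With DESeq2 the counts of genes called were 0, 0, 1, 0 and 0. With 2 libraries per group an exact permutation test cannot give a p under 0.333.

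Over all kept cells the largest fitted value was that of *Ccl12*, which measured 65.3 and 28.8 CPM in the controls and 20.7 and 34.6 CPM in the hucMSC-Exo libraries. Its log2 fold change was -0.64 (SE 0.42), and the other 5 chemokines lay between -0.14 and -0.36. *Ccr2* measured 164.7, 290.03, 249.4 and 327.8 CPM and had 0.39 (SE 0.37). The groups overlapped for each of these genes.

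In macrophages, the C1q and osteoclast-like gates combined, the libraries within a group differed more than the groups. *Ccl8* measured 4403 and 1516 CPM in Control 1 and Control 2 and 1342 and 4875 CPM in hucMSC-Exo 1 and hucMSC-Exo 2. *Ccl2* measured 356.1 and 335.5 CPM in the controls and 195.8 and 507.1 CPM in the hucMSC-Exo libraries, and *Ccl7* measured 295.3, 349.1, 191.0 and 550.9 CPM in the same order. hucMSC-Exo 1 was the lowest library for every one of the 7 genes except *Ccl9*, and hucMSC-Exo 2 was the highest for *Ccl2*, *Ccl7*, *Ccl8* and *Ccl9*.

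The fitted log2 fold changes of hucMSC-Exosomes over control in macrophages were 0.02 (SE 0.59) for *Ccl8*, -0.26 (SE 0.51) for *Ccl12*, 0.17 (SE 0.44) for *Ccl7* and -0.00 (SE 0.42) for *Ccl2*. *Ccl6* had -0.39 (SE 0.52), *Ccl9* 0.19 (SE 0.37) and *Ccr2* -0.20 (SE 0.41). The adjusted p of each gene was 1.00 to 3 significant digits in edgeR's quasi-likelihood test. For each of the 7 genes leaving out 1 library turned the sign. For *Ccl8* the value ran from -1.05 without hucMSC-Exo 2 to 1.03 without Control 1.

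Marker levels of the macrophage gate moved with these values. The summed level of the 10 C1q markers, all of them detected in each library, was 15049.5, 11114, 8912 and 14749 CPM in the 4 libraries, in the same order as *Ccl8* except for the 2 highest libraries. In unsupervised clusters 71.2% of the macrophages of Control 1 fell in cluster 2, against 19.7%, 16.7% and 38.9% in Control 2 and in hucMSC-Exo 1 and 2, and 53.0% of those of hucMSC-Exo 1 fell in cluster 5. The part of this make-up in the chemokine levels was not tested. Markers of mast cells and basophils summed to at most 2.66 CPM in the macrophages.

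The share of macrophages with a UMI was also compared. For *Ccl2* it was 39.4 ± 0.915% in the control group and 27.9 ± 10.4% in the hucMSC-Exosomes group (SD, n = 2), 11.5 percentage points lower and without overlap (exact two-sided permutation test, p = 0.333, the smallest this design allows). After thinning to 1000 UMIs the values were 19.0 ± 4.58% and 14.1 ± 6.14%, and the groups overlapped. *Ccl7* (33.9 ± 2.51% against 22.8 ± 12.3%) and *Ccr2* (37.0 ± 7.84% against 29.5 ± 1.79%) likewise did not overlap at full depth (exact permutation p = 0.333 for each) and overlapped after thinning. *Ccl8*, *Ccl12*, *Ccl6* and *Ccl9* overlapped at either depth.

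**Figure D4:**
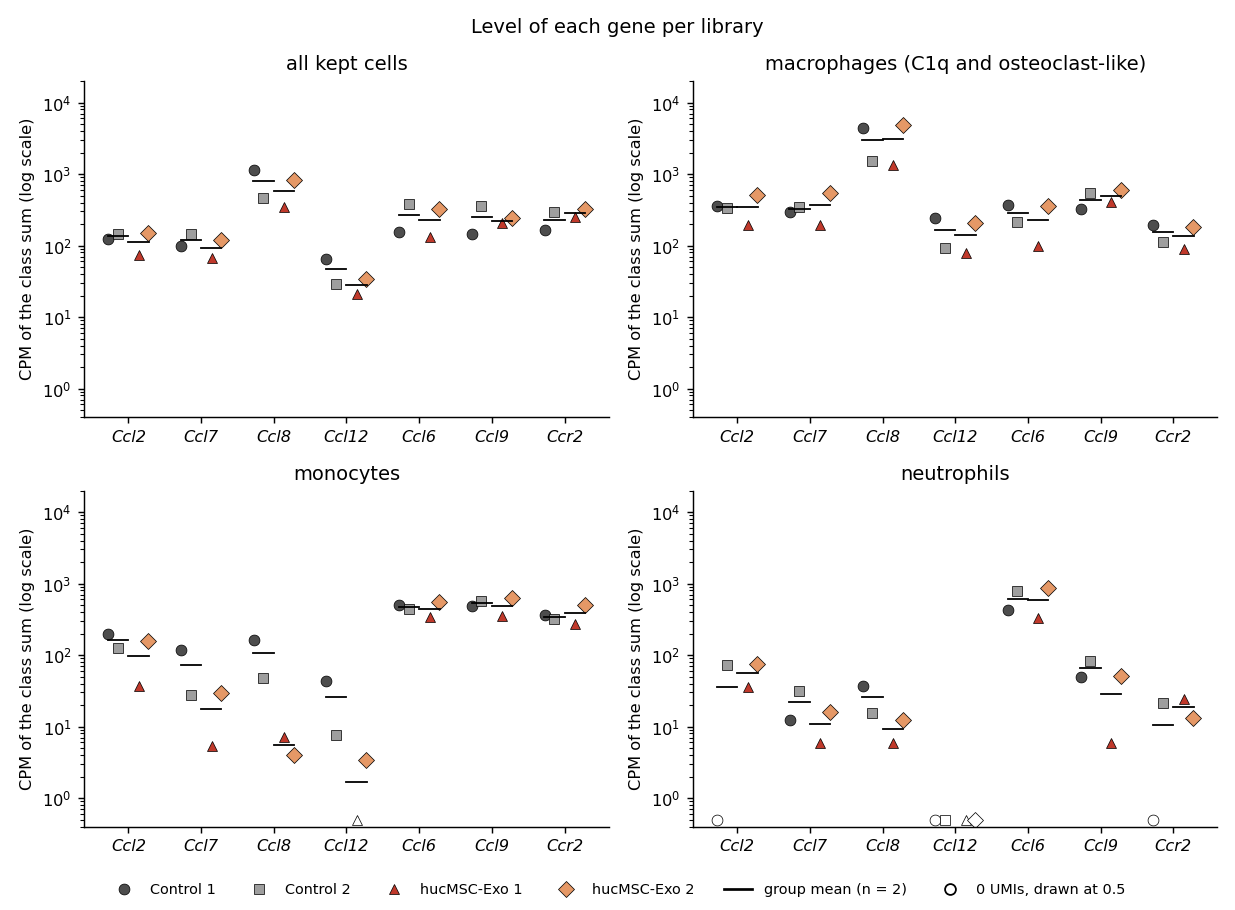
Level of each gene per library (CPM on a log scale, 1 point per library, lines are group means of 2 libraries) in the classes compared. In macrophages hucMSC-Exo 1 is the lowest point for every gene except *Ccl9*, and *Ccl8* spans 1342 to 4875 CPM within the hucMSC-Exosomes group.

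In monocytes 6 of the 7 genes were tested, and *Ccl8* had the widest difference. It measured 163.8 and 48.4 CPM in Control 1 and Control 2 and 7.04 and 4.06 CPM in hucMSC-Exo 1 and hucMSC-Exo 2, without overlap. The fitted log2 fold change was -4.17 (SE 0.74, unadjusted p = 0.000691, adjusted p = 1.00 in edgeR's quasi-likelihood test), and DESeq2 called it (-4.21, adjusted p = 0.000491). DESeq2 called 1 of 6336 genes in all. edgeR called *Ccl8* without the filter on low counts (-4.11), where 38 of 14116 genes were called. Without Control 1, without Control 2 and without hucMSC-Exo 2 the value was -3.16, -4.87 and -3.65, each time with 1 library alone in its group. The *Ccl8* difference rested on 4, 8, 2 and 4 cells with 68, 69, 4 and 6 UMIs, of which 1 cell held 40, 56, 3 and 3. The summed level of the C1q markers in these monocytes was 1684, 1085, 862 and 1302 CPM. Of the gated monocytes 43.5%, 3.23%, 3.37% and 2.82% fell in 1 cluster made mostly of C1q macrophages, and 0, 42, 41 and 22 cells fell in another. The part of these cells in the *Ccl8* result was not tested.

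The other genes in monocytes had log2 fold changes of -1.64 for *Ccl7*, -0.56 for *Ccl2* and 0.31 for *Ccr2*, and none passed. *Ccl12*, at 43.4, 7.72, 0 and 3.38 CPM, was tested only without the filter on low counts or without 1 library, and without the filter it passed (-2.96, adjusted p = 0.0168 in edgeR's quasi-likelihood test). Without Control 2, which left Control 1 alone in its group, *Ccl7* was -2.38. In neutrophils 3 of the 7 genes were tested, *Ccl6* (0.01), *Ccl9* (-0.97) and *Ccl2* (0.23), and none passed.

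In T cells the log2 fold change of *Ccr2* was 0.41 (SE 0.65, adjusted p = 1.00 in edgeR's quasi-likelihood test), and the share of T cells with a *Ccr2* UMI was 35.1 ± 24.4% in the control group and 44.5 ± 9.93% in the hucMSC-Exosomes group (SD, n = 2, exact permutation p = 1). This rested on the 2 unlike controls. Without Control 2 the value was 2.06, the lone Control 1 being assumed to vary like the other group, and that of *Ccl2* was 2.19. In hucMSC-Exo 2, 1 cell held 93 of the 156 *Ccl2* UMIs of T cells, against 20 UMIs in all T cells of Control 1. Without Control 1 the *Ccr2* value was -0.34. The make-up of the T cells also differed between libraries. Dendritic epidermal T cells, the class with the lowest *Ccr2* level among them, were 360 of 517, 259 of 707, 297 of 605 and 248 of 733 T cells, and the part of this in the result was not tested.

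The group effect was not shown to differ between macrophages and neutrophils. The interaction of class and group had the smallest unadjusted p for *Ccl8*, 0.0477 at a log2 value of 1.58 (SE 0.80, adjusted p = 1 in edgeR's quasi-likelihood test), and *Ccl12* could not be fitted because neutrophils had 0 UMIs. The interaction value of *Ccl8* rested on 3, 11, 1 and 15 UMIs in the neutrophils of the 4 libraries, too few for a test in neutrophils alone. Of the other CC ligands, receptors and signalling genes, 13, 12 and 16 were tested over all cells and none passed between the groups there or in any class.

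The 4 MCP genes tended to be found in the same macrophages, with the C1q and osteoclast-like gates pooled. Of the 112 osteoclast-like cells 22 had a UMI of *Ccl2*, 12 of *Ccl7*, 3 of *Ccl8* and 2 of *Ccl12*. The part of this pooling in the odds ratios was not tested. Co-detection was measured in each library as the odds ratio of detecting 2 genes in the same cell, on a log2 scale with 0.5 added to each count, and is a description without a test, since cells share a library and deeper cells detect more of every gene. *Ccl7* was detected in 66.1%, 51.9%, 54.2% and 68.6% of *Ccl2*-positive macrophages and in 16.3%, 18.8%, 3.76% and 11.4% of *Ccl2*-negative ones in the 4 libraries. The mean log2 odds ratio was 3.58 and ranged from 2.21 to 4.82. It was 4.09 after thinning each cell to 1000 UMIs.

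*Ccl12* was detected in 38.0%, 44.8%, 59.3% and 42.2% of *Ccl8*-positive macrophages and in 18.5%, 8.49%, 7.25% and 15.5% of *Ccl8*-negative ones. The mean log2 odds ratio was 2.66 (1.40 to 4.16). The other MCP pairs had means of 2.85 for *Ccl7* with *Ccl8*, 2.38 for *Ccl7* with *Ccl12*, 2.26 for *Ccl2* with *Ccl12* and 2.22 for *Ccl2* with *Ccl8*. After thinning these were 3.43, 2.30, 2.30 and 3.1, so all 6 MCP pairs stayed above 2 at equal depth. Macrophages with none of the 4 MCP genes made up 26.2%, 39.8%, 70.5% and 41.4% of the class in the 4 libraries, and those with all 4 made up 11.9%, 7.96%, 3.85% and 7.79%. hucMSC-Exo 1 had the most macrophages without any of them.

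*Ccl6* and *Ccl9* formed another pair, with a mean log2 odds ratio of 1.71 (1.18 to 2.08) and 1.41 after thinning. *Ccl9* was detected in 76.7%, 80.5%, 74.5% and 81.8% of *Ccl6*-positive macrophages and in 43.2%, 58.0%, 55.9% and 52.0% of the others. The 2 pairs were not linked alike. *Ccl6* was found with *Ccl7* (1.25) and with *Ccl8* (1.14), whereas *Ccl9* showed no such link with *Ccl8* (-0.18) or *Ccl2* (0.29).

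At full depth *Ccr2* was detected less often in *Ccl8*-positive than in *Ccl8*-negative macrophages. It was detected in 29.1%, 20.9%, 22.2% and 25.5% of *Ccl8*-positive macrophages and in 55.6%, 35.8%, 29.0% and 34.5% of *Ccl8*-negative ones. The mean log2 odds ratio was -0.93 (-1.58 to -0.44). After thinning it was -0.00, with a range of -1.37 to 1.84 over libraries, so no such difference is read from these data at equal depth. *Ccl8*-positive macrophages were the shallower ones in Control 1, Control 2 and hucMSC-Exo 1, with medians of 7013, 7130.5 and 5303 UMIs against 9139, 7990.5 and 7321.

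The markers of the macrophage and monocyte gates were summed over the same cells. In *Ccl8*-positive macrophages the C1q markers summed to 19548.5, 19501, 25942 and 21449.5 CPM, against 11480, 7972, 7181 and 9891 CPM in *Ccl8*-negative ones, higher in 4 of 4 libraries. In *Ccr2*-positive macrophages the same markers summed to 12720.5, 8299, 7037 and 12215 CPM, against 17299.8, 12702, 9654 and 16194 CPM in *Ccr2*-negative ones, lower in 4 of 4. The monocyte markers went the other way, with 907, 639, 278 and 820 CPM in *Ccr2*-positive and 309, 269, 209 and 381 CPM in *Ccr2*-negative macrophages. Both macrophage gates are pooled here, and only 3 of the 112 osteoclast-like cells were *Ccl8*-positive. The osteoclast-like markers summed to 579, 1411, 1698 and 1092 CPM in *Ccl8*-positive and 1374, 3060, 2662 and 3250 CPM in *Ccl8*-negative macrophages. They were lower in *Ccr2*-positive macrophages too. The part of the gates in these differences was not tested.

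**Figure D5:**
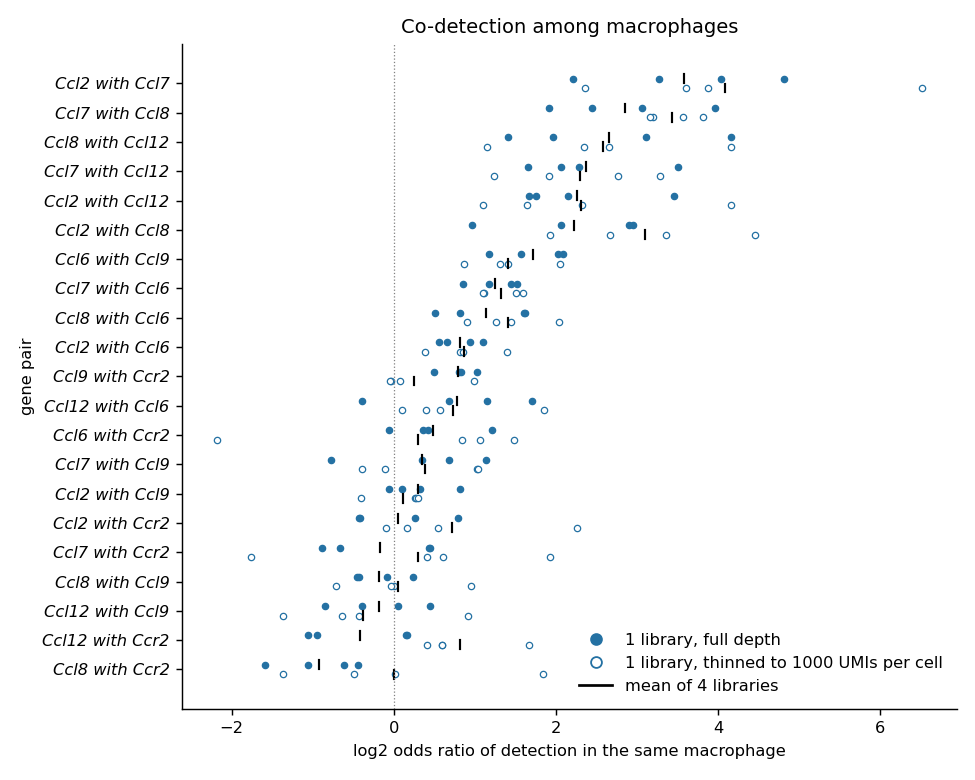
Log2 odds ratio of detection in the same macrophage for the 21 pairs of the 7 genes, 1 point per library at full depth (filled) and after thinning to 1000 UMIs per cell (open), with the mean as a line. The 6 MCP pairs lie at 2.22 to 3.58 on average, and the pair of *Ccl8* and *Ccr2* moves from -0.93 to -0.00 with thinning.

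The genes whose level followed each of the 7 most closely over classes and libraries were found by Pearson's r of log2(CPM + 1) over 47 sums of 14 classes, among 5135 genes. These sums share libraries and depth, some of the genes named also served as gate markers, and r is a description. For *Ccl8* they were *C1qa* (0.74), *C1qc* (0.73) and *C1qb* (0.73), and for *Ccl12* they were *Ccl8* (0.87), *C1qc* (0.81) and *C1qa* (0.79). *Ccl2* was closest to *Saa3* (0.76), *C1qc* (0.76) and *Ccl7* (0.74), and *Ccl7* to *Rnase4* (0.79), *C1qc* (0.78) and *Selenop* (0.76). *Ccl6* was closest to *Cyp4f18* (0.90), *Clec4e* (0.89) and *Ier3* (0.89), and *Ccl9* to *Ier3* (0.89), *Fcgr2b* (0.87) and *Csf2rb2* (0.86). *Ccr2* followed a different set, among them *Atp2b4* (0.83) and *Ssb* (0.82), and had r = -0.44 with *Ccl6*. *Ccl6* and *Ccl9* had r = 0.84 with each other.

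Little of these genes' sequence was shared with other genes. Of the 50-base stretches of their transcripts, *Ccr2* had 1.91% in other genes and *Ccl9* had 1.97%, while the other 5 genes had none.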

How the data were processed

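Skin around the wound was dissociated by the authors, erythrocytes and dead cells were removed, and no cell sort was made. Per the labels and the study's methods, the authors sequenced Chromium 3′ libraries and counted reads with Cell Ranger 6.1.2 on mm10. The deposited values are raw UMI counts per gene and cell, not normalized. The study's methods describe a computational selection of *Ptprc*-positive immune cells, but not whether the deposited cells are that selection.

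Cells were kept if 200 to 3000 genes were detected and no more than 10% of UMIs were mitochondrial, which left 6443 of 7178. The median depth of these cells was 4262.5 and 4392.5 UMIs in the controls and 3747 and 3752 UMIs in the hucMSC-Exo libraries. A cell was gated to a class by at least 2 detected markers of its list. A cell lay near the gate's limit where another class scored at least 75% as high. This held for 119 of 978 C1q macrophages, 43 of 112 osteoclast-like macrophages, 91 of 550 monocytes and 122 of 924 neutrophils. The counts were 97 of 543 IL-17 gamma delta T cells and 109 of 625 CD4 T cells. Among group 2 innate lymphoid cells there were 100 of 284. The dendritic epidermal T cells had 0 of their own markers among their 10 leading genes, so they were not compared between groups as a class of their own, but they are part of all T cells (1164 of 2562). Doublets were scored with Scrublet, whose own threshold marked 1, 11, 15 and 16 cells. All cells were kept in the results, and an alternative left out the top 10% of scores. Counts were summed per library and class where 10 or more cells were present. Sums were tested with edgeR 4.0.16 (TMM, filterByExpr, quasi-likelihood F-test, Benjamini-Hochberg) in R 4.3.3, with DESeq2 1.42.0 as an alternative. The edgeR step was tested on simulated data. Shares of cells were given with exact Clopper-Pearson intervals and compared by exact permutation tests in scipy 1.17.1. Where a gene had no UMI, 3 counts set the upper limit. Clusters came from scanpy 1.11.5 (Leiden, resolution 1). Positions follow GENCODE M21, whose mm10 build is GRCm38, and RefSeq promoters were matched by symbol for 5 of the 7 genes.

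The text names the 7 genes throughout, up to 8 genes of the pathway lists per comparison with the largest fold changes past the threshold, and the 3 genes most like each of the 7. The genes, lists and classes were chosen with earlier results of these data known. A few genes that this rule would name are not reported here.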

Additional observations from a re-analysis of the deposited data

How the results depend on the processing

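Depth and the number of libraries limit these results. Mast cells and basophils were few, *Ccl8* in monocytes and osteoclast-like macrophages rested on single cells, and each group held 2 libraries.

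The number of the 7 genes called changed as follows, and where no cause is given the cause was not tested. The number called over all genes changed under the same settings and is given further below. In monocytes it was 0 of 6336, then 1 of 6336 with DESeq2 and 38 of 14116 without the filter on low counts. In monocytes 0 were called between the groups, 1 with DESeq2, 2 without the filter on low counts, and 0 to 2 with 1 library left out. In T cells 0 became 0 to 2 with 1 library left out. Between C1q macrophages and monocytes 6 became 7 with no upper limit on detected genes or 1 marker more per gate, 5 with clusters as classes or without the library block, and 6 to 7 with 1 library left out. Between the macrophage classes 4 became 5 without doublets or with 1 marker more per gate, and 6 with no upper limit. They became 3 without the block, and 4 to 5 with 1 library left out. The 6 with no upper limit came with many more calls over all genes. Between neutrophils and monocytes 2 became 4 without the filter on low counts or with 1 marker more per gate, 3 without doublets, with no upper limit or with clusters, and 2 to 4 with 1 library left out. Between IL-17 gamma delta and CD4 T cells 1 became 2 without the filter, 0 with clusters as classes or without the library block, and 0 to 1 with 1 library left out.

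Signs turned mostly where the value was small. In macrophages the log2 fold change between groups with 1 library left out ran from -0.72 to 0.50 for *Ccl2*, -0.66 to 0.72 for *Ccl7*, -1.05 to 1.03 for *Ccl8*, -0.97 to 0.64 for *Ccl12*, -1.47 to 0.25 for *Ccl6*, -0.089 to 0.59 for *Ccl9* and -0.70 to 0.28 for *Ccr2*. *Ccl2* there was also 0.0043 with DESeq2, 0.0075 without doublets, 0.0248 with 1 marker more per gate and 0.26 with no upper limit on detected genes, where *Ccr2* was 0.50. In the other classes it ran from -0.12 to 0.64 for *Ccr2* in monocytes, -0.66 to 0.82 for *Ccl6* in neutrophils and -0.34 to 2.06 for *Ccr2* in T cells. With clusters as classes *Ccl9* was 0.19 in C1q macrophages against monocytes, and in neutrophils against monocytes *Ccl2* was 0.22 and *Ccl7* 0.62, the latter running from -0.41 to 0.080 with 1 library left out. *Ccl6* in osteoclast-like against C1q macrophages was 0.0176 without doublets, 0.0457 without the library block and -0.65 to 0.11 with 1 library left out.

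The difference in the share of cells between groups, in percentage points, ran with 1 library left out from -27.97 to 2.29 for *Ccl8*, -10.4 to 2.95 for *Ccl12*, -20.96 to 5.13 for *Ccl6* and -3.33 to 3.21 for *Ccl9* in macrophages, and from -7.79 to 26.7 for *Ccr2* in T cells. Thinning gave 3.97 for *Ccl9*. Co-detection of *Ccr2* after thinning was -0.00023 with *Ccl8* and 0.24 with *Ccl9*.

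Genes called between C1q macrophages and monocytes numbered 2073, against 1246 with DESeq2, 1040 without the library block, 1256 without Control 2 and 1324 without hucMSC-Exo 2. Between the macrophage classes 346 were called, against 162 with DESeq2, 3047 with no upper limit on detected genes (1464 higher), 183 without the block and 136 without Control 2. With no upper limit *Ccl6* (-1.72) and *Ccr2* (-2.67) were also lower in the osteoclast-like cells. Neutrophils and monocytes differed in 2779 genes, 1811 without Control 2 and 1836 without hucMSC-Exo 2, and the T cell classes in 1285, 731 with DESeq2. Between groups the count of 0 became at most 2 over all cells, 123 in macrophages, 84 in monocytes, 10 in neutrophils, 231 in T cells and 11 for the interaction. The largest counts in macrophages, monocytes and T cells came without Control 2.

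Replicate numbers are shared by the groups but belong to different mice. Libraries with the same number deviated from their group means with a correlation of 0.19 over all cells, -0.27 in macrophages, -0.10 in monocytes, -0.03 in neutrophils and 0.26 in T cells. With the replicate number as a block 0 of the 7 genes and 0 genes in all were called in every group comparison, and *Ccl8* in macrophages was -0.0048. The macrophage classes were not compared under clusters, which held no osteoclast-like cluster, or without Control 1, which that comparison did not use.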
